A study of Mus musculus with 16 samples.

Results

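Siglech encodes Siglec-H, a sialic acid-binding immunoglobulin-like lectin on the surface of mouse plasmacytoid dendritic cells (pDC), where it is widely used as a marker. Acetylation of histone H3 at lysine 27 (H3K27ac) at its locus was described from the deposited regions. Every region was taken that overlapped chromosome 7 from 63005000 to 63055000 of the mouse genome build mm9, a 50 kb window. Regions were taken by position only, but the window was chosen with earlier results of these data known. This window held 19 of the 273958 regions in the 4 lists. By list, 4 regions came from the comparison of CDP with MPP, 9 from cDC with CDP, 4 from pDC with CDP and 2 from pDC with cDC. The lists share libraries, so that many of the 19 regions are the same place seen in another comparison.

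Chromatin of sorted C57BL/6 cells was immunoprecipitated for H3K27ac and sequenced, with 2 libraries each of multipotent progenitors (MPP), common dendritic cell progenitors (CDP), classical dendritic cells (cDC) and pDC. The labels give no treatment, age, sex or culture, and they do not say if paired libraries stem from different mice, so that p-values measure only the spread between these libraries. The antibody is given as abcam ab4729 in one label and as a Santa Cruz Biotechnology product in the protocol. The 4 RNA samples and 4 inputs were not used here, so that levels of the Siglech transcript are not reported.

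H3K27ac marks active promoters and enhancers, and long acetylated domains are known from genes that define a cell type. In pDC, which sense nucleic acids and release type I interferon, Siglec-H takes up ligands from the cell surface and signals through the adaptor DAP12, which dampens the interferon response. pDC and cDC both arise from CDP, which arise from MPP. In populations of cells, fewer acetylated cells and less acetylation per cell cannot be told apart.

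Signals below are the authors' whole-number values, with a scale of its own for each library and list, so that levels are compared only within a list unless stated otherwise. A ratio is that of group means after adding 1 to each mean. A limma difference is on the scale of log2(signal + 1), with its standard error (SE), and its p-value is adjusted over all regions of the list by the Benjamini-Hochberg method. The regions had been called as differing from the same 4 libraries, so that these p-values are too small, and each count of calls stands beside the share of all regions of the list called in the same way. An exact two-sided permutation test of 2 libraries against 2 cannot go below 0.333.

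The 250 bases before the Siglech start are shown because the gene is the one the window was set for. The sequence is RefSeq's, on the plus strand of chr7:55767934-55768183 of build GRCm38.p6. These positions are not those of mm9, and the promoter was not placed among the mm9 regions. Capitals mark matches to either of a pair of motifs, the E-box CANNTG and TGNGGT, a loose form of the Runx core with any base at N.
Siglech: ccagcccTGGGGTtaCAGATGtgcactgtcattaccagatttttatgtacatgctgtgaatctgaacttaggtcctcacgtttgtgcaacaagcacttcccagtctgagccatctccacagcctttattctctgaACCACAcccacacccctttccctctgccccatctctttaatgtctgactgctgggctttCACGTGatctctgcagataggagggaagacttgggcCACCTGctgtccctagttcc

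The stretch held 3 E-boxes, the motif bound by basic helix-loop-helix proteins such as E2-2 (Tcf4), a regulator of pDC. CAGATG began 235 bases, CACGTG 56 bases and CACCTG 20 bases before the start. Binding of E2-2 to them was not tested. Of 32851 RefSeq promoter stretches of the same length, 66.2% held at least 1 E-box, and the share with 3 or more is not given here. TGNGGT matched at 2 places, TGGGGT at 243 bases and, on the other strand, ACCACA at 115 bases before the start. At least 1 match on either strand was held by 40.1% of promoters, and the share with 2 or more is not given here. The PU.1-type sequence GAGGAAG and the interferon-response core, GAAA followed after any 2 bases by GAAA, had no match on either strand, against 10.6% and 2.98% of promoters with one. No motif match overlapped another. The stretch held 2 CG dinucleotides, against a median of 6, and its G and C content was 50.8%, against a median of 52.4%.

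The locus held a single region of 24.5 kb called higher in pDC than CDP, on chromosome 7 from 63018151 to 63042650 (mm9). Its length is the extent of that call, and a summed signal per library does not show if pDC acetylation was continuous across it. Averaged over this region CDP and cDC had low signal, though not at every place within it. Next to it lay a shorter block, of 4.2 kb in the list with CDP and 4.45 kb in that with cDC, with signal in all 4 cell types. Within the 24.5 kb, the lists of CDP against MPP and cDC against CDP held only short regions of 0.15 to 1.7 kb. The positions of genes in mm9 were not used here. In RefSeq's gene order on GRCm38, the protein-coding genes on either side of Siglech are Luzp2 and Tubgcp5, a component of the gamma-tubulin complex.

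**Figure D1:**
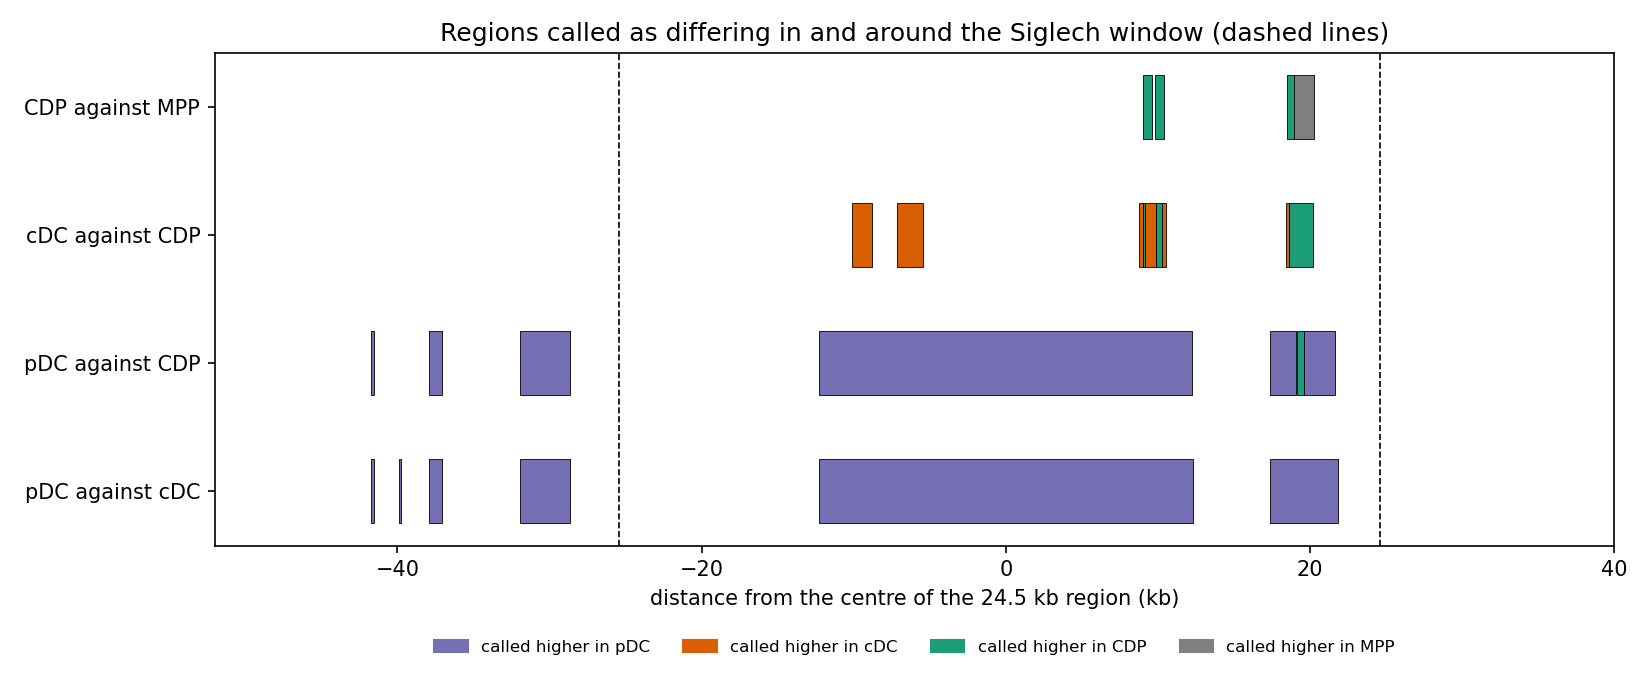
Map of the regions called as differing in each comparison, one row per comparison, against the distance in kb from the centre of the 24.5 kb region; colour gives the cell type called higher in the authors' deposited table and dashed lines bound the 50 kb window. The 24.5 kb region appears in both pDC rows as 1 block, while the CDP against MPP and cDC against CDP rows hold only short regions inside it.

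Against CDP, pDC had 20.1-fold more signal over the 24.5 kb region. The pDC libraries had signals of 37249 and 40985, against 1540 and 2350 in CDP. The libraries of a cell type lay close to each other compared with the gap between cell types. Per kb, this was 1520 and 1673 in pDC, against 62.9 and 95.9 in CDP. The limma difference was 4.36 ± 0.22 (SE) with an adjusted p of 0.000145. When each library was scaled to the same autosomal sum over the list, it was 4.06, and the median log2 ratio of all regions of the list was then -0.26, against 0.04 as deposited.

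The second-listed pDC library exceeded the first by 0.14 on the log2 scale here, near its median offset of 0.19 over the list. For CDP this offset was 0.61, against a median of 0.23. Among the 35115 regions called higher in pDC than CDP, 2 were at least this long, the region itself included. By signal it ranked 6th, and by ratio 2389th. Its signal per kb ranked 5109th, so that it stood out in length and summed signal more than in density or ratio. In the authors' deposited table its −log10 p of 8962 was the highest of the whole list. Such a value grows with the length and signal of a region as well as with the ratio.

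Against cDC, pDC had 11.1-fold more signal over almost the same bounds, from 63018151 to 63042700. Signals were 44383 and 48037 in the pDC libraries and 3426 and 4870 in those of cDC. All pDC values again lay far above those of the other cell type. The limma difference was 3.50 ± 0.28 (SE) with an adjusted p of 0.0002, and it was 3.02 with equal autosomal sums, when the median log2 ratio of all regions was -0.26, against 0.20 as deposited. The offset between the cDC libraries was 0.51 on the log2 scale, second-listed over first, close to its median offset of 0.50 over the list. The authors' deposited table gave a −log10 p of 8937, the second highest among the 37832 regions called higher in pDC than cDC.

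The pDC libraries were shared by both comparisons, and the lists differ by a nearly constant factor per library. Rescaled by the factor found at regions with identical bounds, the pDC signal of the first comparison came to 99.7% of that of the second in each library. On this basis CDP had 4.97% and cDC 8.98% of the mean pDC signal, a ratio of 1.81 between cDC and CDP. This ratio carries no test.

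The window as a whole gave lower ratios, because it also held the neighbouring block. Summed over all regions of the window, the ratio was 10.1 for pDC over CDP, across 28.7 kb, and 8.56 for pDC over cDC, across 29 kb. By limma 3 of 4 regions were higher in pDC than CDP, against 25.2% of all regions of that list. In 3 of 4 regions both pDC libraries lay above both CDP libraries, against 39.7% of the list. Both regions of the other comparison were higher in pDC than cDC, against 23.3% of that list, and both had separate libraries, against 41.8%. None of the 4 regions was lower in pDC than CDP by limma, against 19.7% of that list, or at an unadjusted p under 0.05, against 24.5%. Neither of the other comparison's regions was lower in pDC than cDC, against 9.32% of that list, or at an unadjusted p under 0.05, against 13.1%.

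**Figure D2:**
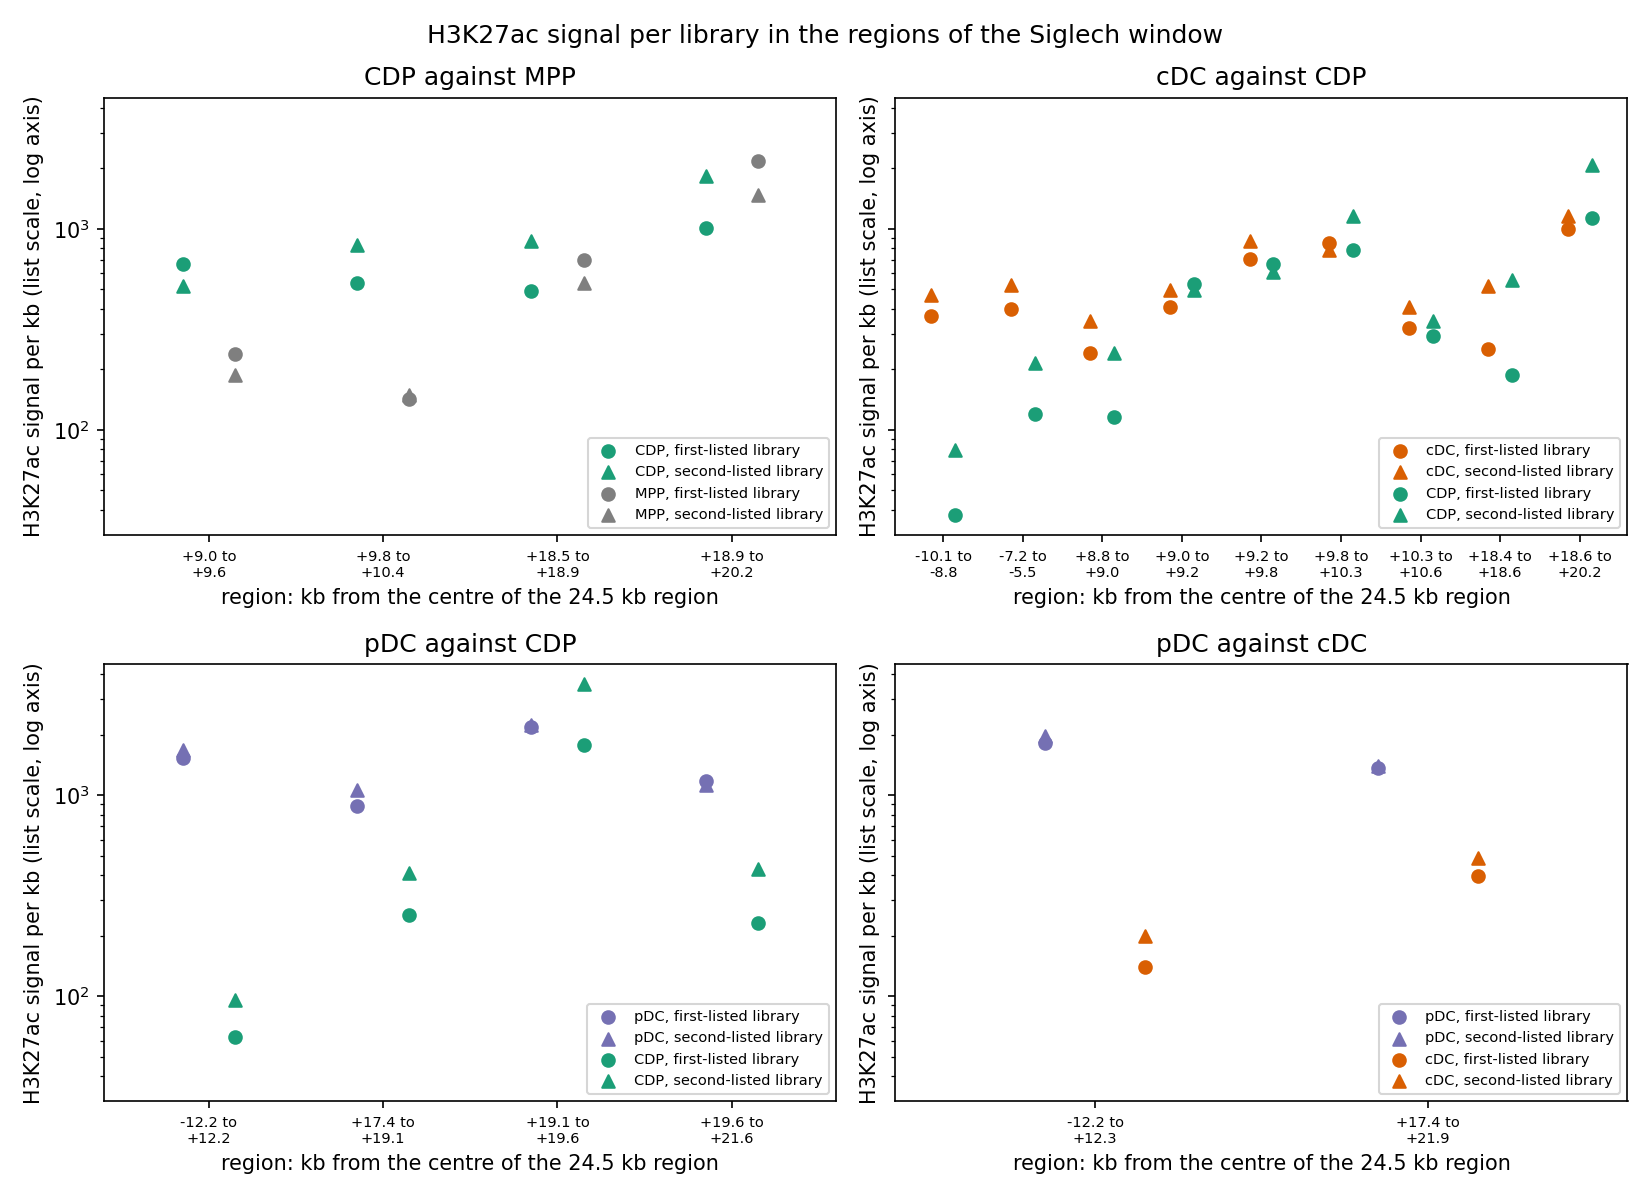
H3K27ac signal per kb (log axis, on the scale of each list) in every region of the window, 1 panel per comparison, with regions in order along the chromosome and labelled by their distance in kb from the centre of the 24.5 kb region; circles are first-listed and triangles second-listed libraries. In the 24.5 kb region pDC lies at 1520 and 1673 per kb, against 62.9 and 95.9 in CDP, whereas at 19.15 to 19.6 kb from the centre the pDC and CDP libraries overlap.

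In the step from MPP to CDP, acetylation rose at a place in the higher-coordinate part of the later pDC region. There 2 regions of 0.6 kb each were higher in CDP. The CDP signals were 401 and 310 from 63039401 to 63040000, where MPP had 143 and 112, giving a ratio of 2.77. They were 321 and 498 from 63040201 to 63040800, where MPP had 85 and 89, giving a ratio of 4.66. In each of them both CDP libraries lay above both MPP libraries.

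The limma differences were 1.47 ± 0.36 (SE) with an adjusted p of 0.0065, and 2.19 ± 0.38 with an adjusted p of 0.000388. The first lost its call without the second-listed MPP library (adjusted p = 0.09) and without the first-listed CDP library (adjusted p = 0.0518), with differences of 1.30 and 1.29. By limma 2 of 4 regions in the window were higher in CDP than MPP, against 8.42% of the list, and 2 of 4 had separate libraries in that direction, against 26.8%. None was lower in CDP by limma, against 10.98% of the list, or at an unadjusted p under 0.05, against 17.5%. Over the rest of the 24.5 kb this list had no region, which does not show that MPP and CDP had equal signal there.

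In the list with pDC, CDP signals were 1540 and 2350 over the 24.5 kb region and 1697 and 3185 over the block after it. Within the 24.5 kb region, the 2 short regions higher in CDP than MPP held much of the CDP signal. Put on the scale of the CDP and pDC list, their 1.2 kb, or 4.90% of the length of the 24.5 kb region, held 50.9% of its signal in the first-listed CDP library and 36.8% in the second. The regions called between CDP and cDC covered 19.6% of the length and held 71.5% and 62.1% of the CDP signal. This is a level set across lists that were scaled separately, by factors of 0.921 and 0.933 for the first comparison and 1.14 and 1.12 for the second.

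In cDC, acetylation rose over CDP at 2 regions in the lower-coordinate part of the pDC region, 8.8 to 10.1 kb and 5.45 to 7.15 kb before its centre. The cDC signals were 478 and 608 from 63020301 to 63021600, where CDP had 49 and 103, giving a ratio of 7.06. Both cDC libraries were above both CDP libraries. The limma difference was 2.90 ± 0.50 (SE) with an adjusted p of 6.6e-05. The cDC signals were 681 and 895 from 63023251 to 63024950, where CDP had 204 and 366, giving a ratio of 2.76, again with separate libraries. Its limma difference was 1.51 ± 0.43 with an adjusted p of 0.00967. This call was lost without the first-listed CDP library (difference 1.09, adjusted p = 0.319), without the second-listed cDC library (1.31, adjusted p = 0.0822) and without a variance trend (adjusted p = 0.0775).

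At the place that had gained acetylation from MPP to CDP, 5 touching regions from 63039151 to 63040950 were listed between CDP and cDC, with calls in alternating directions. None passed the test, with adjusted p of 0.509 to 0.863. In the longest, of 0.7 kb, the cDC signals were 495 and 606 and the CDP signals 469 and 427, with a limma difference of 0.29 ± 0.41 (SE). In the next, of 0.45 kb, the cDC signals were 382 and 354 and the CDP signals 351 and 521, with a difference of -0.22 ± 0.43. Here cDC and CDP had signals of similar size, and the spread does not exclude a difference of the size of the SE or more.

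Per kb, the gap between cDC and CDP was narrow in the higher-coordinate part and wide in the lower-coordinate part. In the 0.7 kb region from 63039551 cDC had 707 and 866 per kb, against 670 and 610 in CDP. In the 1.3 kb region from 63020301 cDC had 368 and 468 per kb, against 37.7 and 79.2 in CDP. Over the whole window 2 of 9 regions were higher in cDC than CDP by limma, against 7.64% of the list, and 3 of 9 had separate libraries in that direction, against 22.03%. No region was lower in cDC by limma, against 14.4% of the list, or at an unadjusted p under 0.05, against 21.2%. Summed over the 7 regions within the pDC region, across 4.8 kb, the cDC signals came to 2237 and 2726 and the CDP signals to 1255 and 1638, a ratio of 1.72 with no test.

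The block after the 24.5 kb region carried signal in all 4 cell types. In its core, from 63049351 to 63050650, the CDP signals were 1306 and 2376 and those of MPP 2841 and 1921. These overlapped, with a limma difference of -0.41 ± 0.33 (SE) and an adjusted p of 0.438. From 63049001 to 63050600, the cDC signals were 1604 and 1853 and those of CDP 1820 and 3335, also overlapping, with a difference of -0.51 ± 0.36 and an adjusted p of 0.353. From 63049551 to 63050000, the pDC signals were 982 and 998 and those of CDP 797 and 1603, with a difference of -0.19 ± 0.34 and an adjusted p of 0.654. No cell type was shown to differ in this core by the comparisons that resolved it. In each of these regions the CDP libraries differed from each other by more than the cell types did.

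On both sides of the core, pDC exceeded CDP. Before it, from 63047801 to 63049500, the pDC signals were 1505 and 1805 where CDP had 429 and 699, giving a ratio of 2.93. After it, from 63050001 to 63052050, they were 2408 and 2295 where CDP had 471 and 883, giving a ratio of 3.47. The libraries of the cell types were separate in both. The limma differences were 1.59 ± 0.29 (SE, adjusted p = 0.00471) and 1.86 ± 0.31 (adjusted p = 0.00346). Both calls were lost when a single pDC library was left out, whichever it was, while the differences stayed at 1.46 to 1.90.

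Between pDC and cDC the block was 1 region of 4.45 kb, from 63047801 to 63052250. Signals were 6031 and 6217 in the pDC libraries and 1764 and 2159 in those of cDC, a ratio of 3.12 with a limma difference of 1.65 ± 0.27 (SE) and an adjusted p of 0.00196. This call was lost without the first-listed pDC library (difference 1.67, adjusted p = 0.0504) and without the second-listed (1.63, adjusted p = 0.0564). The ratio was smaller than the 11.1 of the 24.5 kb region beside it. The difference between these ratios was not tested.

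Just outside the window, a region of 3.3 kb lay 16.4 kb before the 24.5 kb region, from 62998451 to 63001750. Beside CDP, its pDC signals were 4563 and 5108 and its CDP signals 220 and 299, giving a ratio of 18.6. Beside cDC, over the same bounds, its pDC signals were 5324 and 6159 and its cDC signals 261 and 408, giving a ratio of 17.1. These ratios stand beside 20.1 and 11.1 for the 24.5 kb region. The limma differences were 4.23 ± 0.23 (SE, adjusted p = 0.000145) over CDP and 4.13 ± 0.32 (adjusted p = 0.0002) over cDC. Per kb, pDC had 1383 and 1548, against 66.7 and 90.6 in CDP, close to the density of the longer region.

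Farther out, a region of 0.9 kb from 62992451 to 62993350 carried pDC signals of 228 and 444 and CDP signals of 33 and 35. In the list with cDC it carried pDC signals of 283 and 529 and cDC signals of 31 and 29. A region of 0.2 kb from 62988651 to 62988850 carried pDC signals of 45 and 88, while both cDC libraries were listed at 0. In the list with CDP it carried pDC signals of 38 and 79 and CDP signals of 8 and 11. The list with cDC also held a region of 0.15 kb from 62990501 to 62990650, with pDC signals of 34 and 63 and cDC signals of 1 and 0. Signals of these short regions were low. In all of these the pDC libraries were separate from the others. The lists of CDP against MPP and cDC against CDP held no region in this stretch.

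Among other long regions called higher in pDC, the Siglech region was set apart mainly by the length of its call. The comparison set was the 441 regions of at least 5 kb called higher in pDC than cDC, of which at least 50% was covered by regions called higher in pDC than CDP. Ratios above 1 follow from that choice, so that ranks are a description. The Siglech region, of 24.55 kb, was the 4th longest, against a median of 6.05 kb. Its ratio of pDC over CDP of 20.1 ranked 30th, against a median of 3.64. Its ratio of pDC over cDC of 11.1 ranked 54th, against a median of 3.66. Of the other 440 regions, 21 were at or above it in both.

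The level in pDC itself was ordinary for this set. The Siglech region had a mean of 1882 per kb in pDC, against a median of 1875, and ranked 220th. Regions of the other lists covered little of it. The cDC against CDP list covered 19.6% of its length, against a median of 66.9%, and the CDP against MPP list covered 4.89%, against a median of 50%.

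The 3 regions of this set whose pair of log2 ratios lay nearest to that of the Siglech region, over 6 libraries of 3 cell types, were on chromosomes 1, 16 and 2. Likeness was the Euclidean distance between the log2 ratios of pDC over cDC and pDC over CDP. Chromosome 1 from 39449301 to 39461100, at a distance of 0.15, carried pDC signals of 14417 and 14801 and cDC signals of 908 and 1911. Chromosome 16 from 11740801 to 11747450, at a distance of 0.20, carried pDC signals of 7984 and 10414 and cDC signals of 763 and 980. Chromosome 2 from 90506801 to 90511850, at a distance of 0.24, carried pDC signals of 7648 and 8726 and cDC signals of 428 and 834. These regions were 11.8, 6.65 and 5.05 kb long, shorter than the Siglech region. Their ratios of pDC over CDP were 21.7, 17.7 and 18.7, a likeness to the Siglech region that follows from the choice. Low coverage by the other lists was shared by these 3 regions, but not by every region nearly as alike. The cDC against CDP list covered 2.12%, 5.26% and 12.9% of their length, and the CDP against MPP list 2.97%, 0% and 0%. In the next nearest region, on chromosome 11 from 106476551 to 106489350 at a distance of 0.24, these lists covered 38.3% and 32.0%.

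**Figure D3:**
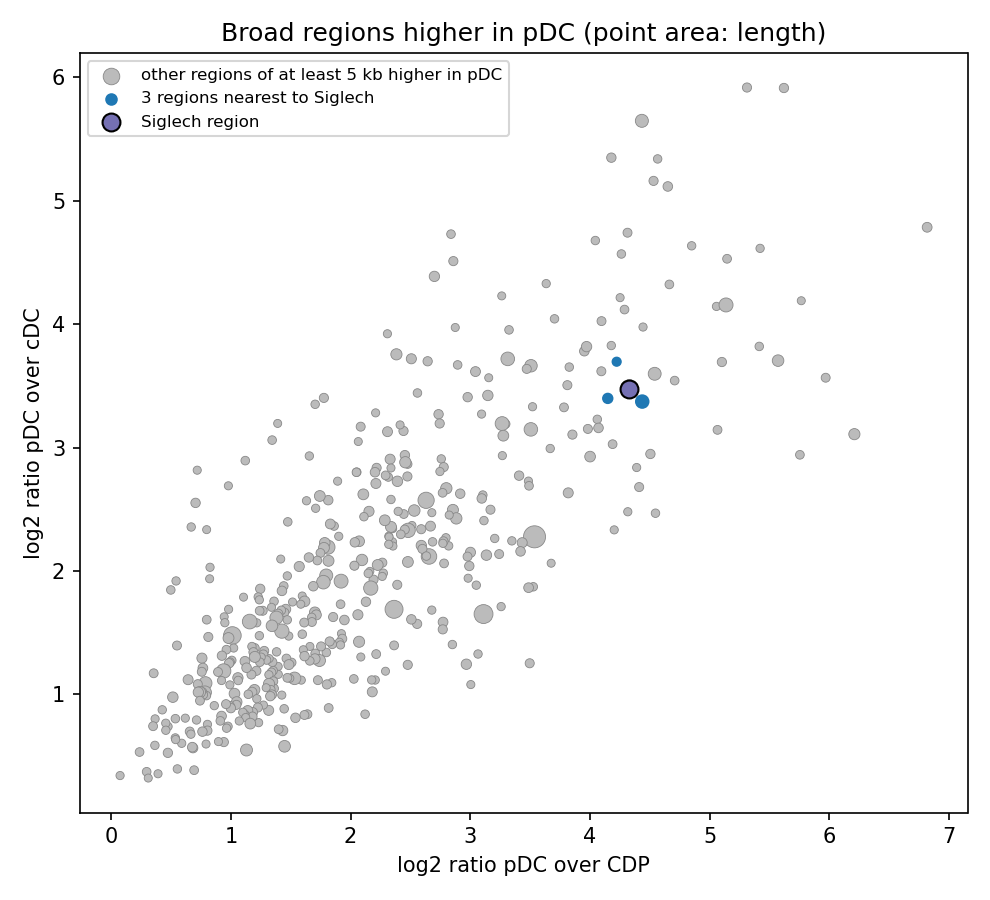
Log2 ratio of pDC over CDP (x axis) against log2 ratio of pDC over cDC (y axis) for the 441 regions of at least 5 kb called higher in pDC, with point area proportional to length; the axes share the pDC libraries. The Siglech region sits at 4.33 and 3.48, above the medians of 1.86 and 1.87, with the 3 nearest regions around it.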

How the data were processed

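Per the submitters' processing notes, reads were aligned with BWA 0.6.1 to mm9. Differential regions come from THOR, per the series title, with settings not stated there or in the labels. The authors' deposited lists hold, per region, bounds, a direction, the scaled signals of 2 libraries of each cell type and −log10 of a p-value. Bounds come in steps of 50 bp. The signals are not read counts, and the read depth is unknown.

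Each list's name gives its cell types in order, and the values were read in that order. As a check, regions with identical bounds in 2 lists and signals of at least 20 were compared. For the 10 pairs read as the same library, the ratio was constant (0.807 to 1.14), with a highest SD of 0.059 on the log2 scale. For the 86 remaining pairs the lowest SD was 0.52. MPP is in 1 list only. The values carry no replicate number.

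Signals were summed over whole regions overlapping the window. Tests used limma 3.58.1 in R 4.3.3 on log2(signal + 1) with a variance trend, fitted to all regions of a list, with a threshold of 0.05 on adjusted p. The fit was tested on simulated data. Alternatives were other pseudocounts, scalings, filters and parts of the window, no variance trend, and leaving out each library. Regions of at least 5 kb were compared with the Siglech region by a rule on position, direction and coverage, and motifs were searched in the 250 bases before each RefSeq start. Windows, motifs and rules were chosen with earlier results of these data known. Coordinates are 1-based. Other calculations used pandas 2.3.3 with numpy 2.4.6 in Python 3.11.15, and matplotlib 3.10.9 drew the figures.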

Additional observations from a re-analysis of the deposited data

Results flagged for a closer look

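The change from CDP differed between the mature cell types at the 24.5 kb Siglech region. Tested directly as pDC against cDC with limma, the difference was 3.50 on the log2 scale with an adjusted p of 0.0002. Both pDC libraries (44383 and 48037) lay above both cDC libraries (3426 and 4870). The region had been called as differing from these same libraries, so that this p-value is too small. By limma 23.3% of all regions of that list were higher in pDC.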

How the results depend on the processing

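The 24.5 kb region kept its limma call in each of 10 alternatives, with differences of 4.05 to 4.66 for pDC over CDP (adjusted p of 5.38e-06 to 0.0188) and 3.02 to 3.75 for pDC over cDC (2.05e-06 to 0.00548). Over the whole window the log2 ratio was 3.33 for pDC over CDP and 3.10 for pDC over cDC. It was 4.33 and 3.48 for the region with the most signal, which is the 24.5 kb region, 1.03 and 1.64 for the block after it, 2.99 to 3.77 and 2.90 to 3.33 with a library left out, and 2.63 for pDC over cDC with equal autosomal totals. The log2 ratio for CDP over MPP was 0.02, with -0.35 to 0.32 on leaving out a library. It was -0.37 for the region with the most signal, 1.83 within the 24.5 kb region and -0.31 after it. The log2 ratio for cDC over CDP was 0.07, with -0.24 to 0.46, -0.58, 0.78 and -0.56 in the same order. These signs therefore depended on which part of the window was summed and on single libraries. Taking the parts of the window apart was added after seeing the data.

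Counts of regions called by limma fell on leaving out a library to between 1 and 2 for CDP over MPP, cDC over CDP and pDC over cDC, and to between 1 and 3 for pDC over CDP. Without a variance trend cDC over CDP had 1. The sign turned on leaving out a library only in regions that did not pass the test. For CDP over MPP, the region from 63048901 ran from -0.31 to 0.51 and that from 63049351 from -0.84 to 0.02. For cDC over CDP, the region from 63040251 ran from -0.50 to 0.07 and that from 63048851 from -0.60 to 0.94. For pDC over CDP, that from 63049551 ran from -0.69 to 0.31. With 1 library left in a group, it is assumed to vary like the other group. No paired analysis was possible because the values carry no replicate numbers. Pseudocounts of 0.5 and 5, minimum signal and minimum length changed no limma call. With an unknown read depth no counting interval can be given.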
